A study of Mus musculus with 12 samples.

Results

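Hepatocytes from mice that kept both Yap1 and Wwtr1, the gene of TAZ, were compared 48 h after acute injury by carbon tetrachloride (CCl4) and without injury. The comparison takes 6 of the 12 libraries of the study, chosen by their group labels and not by any measured value: the 3 of the group ctrl + CCl4 and the 3 of the group ctrl. All 6 came from Yapflox/flox; Tazflox/flox mice whose effective genotype is given as WT: the alleles of both genes are floxed, and no Cre vector is named for these animals. The injured mice received CCl4 at 1 ml/kg in corn oil by intraperitoneal injection, and no oil injection is named for the uninjured ones, so the injury, the solvent and the injection cannot be told apart. Age and sex are not given in the labels. The other 6 libraries, Yap/Taz KO and Yap/Taz KO + CCl4, came from the same strain after an AAV8 vector had delivered Cre under TBG, a promoter active in hepatocytes, 3 weeks earlier, without and with the same injury. They served here to estimate the spread and for 1 comparison at the end. The uninjured and injured controls are not said to have received a control vector. Livers were perfused with collagenase, hepatocytes were sorted by flow cytometry, and 500000 sorted cells went into each library; the labels give no sorting gate and do not say whether libraries came from separate animals.

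CCl4 does its harm after cytochrome P450 enzymes have turned it into a radical, and the enzyme that does most of this work, Cyp2e1, is made by the hepatocytes around the central vein. Those cells die, and the surviving hepatocytes, which are otherwise at rest, enter the cell cycle to replace them while the liver goes on making plasma proteins, bile and urea. Liver metabolism is zoned: detoxification and glutamine synthesis lie around the central vein, urea synthesis and glucose production around the portal vein. Injury also draws in monocytes and activates stellate cells, and the liver raises a set of plasma proteins, the acute phase proteins, in answer to inflammation.

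Total counts of the 6 libraries ran from 1617761 (ctrl replicate 3) to 3028951 (ctrl + CCl4 replicate 2), with 11281 to 14879 genes detected. Values are given in CPM, counts out of 1000000 after TMM scaling of the library sizes, in the order of replicates 1, 2 and 3. Hepatocyte markers were high in every library: 12 of them summed to 149663, 143882 and 178318 CPM in ctrl and 103537, 101115 and 82901 CPM in ctrl + CCl4, and 8 of the 12 fell (5 with library totals). One library stood apart before any comparison. In ctrl replicate 1, 402 tested genes with at least 30 counts exceeded both other controls more than 3 times, against 33 such genes in each of the other 2 controls, and 54 of the 402 belong to marker lists of other cell types. Pancreatic acinar markers summed to 2384, 43.3 and 181 CPM in the 3 controls and to 34.1, 32.6 and 392 CPM in the injured libraries, where ctrl + CCl4 replicate 3 was the highest. In the 3 controls erythroid and platelet markers summed to 1603, 20.6 and 155, dendritic cell markers to 2264, 298 and 381, and sinusoidal endothelial markers to 3434, 984 and 1380.4. Calls and fold changes below were therefore also computed without that library. The spread within groups, the principal components, the counts by size of change, the steady genes and the calls shared with the knockout were not. In sorted bulk RNA, fewer cells of a type and less RNA per cell cannot be told apart.

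Genes of cell division rose and genes of hepatocyte metabolism fell after CCl4. Of the 37141 genes counted, 10780 had enough counts to be tested, and by edgeR's quasi-likelihood test 1137 of them (10.5%) were higher and 1290 (12%) lower after injury at an adjusted p of 0.05. Without ctrl replicate 1, 1707 of 11082 tested genes (15.4%) were higher and 1466 (13.2%) lower. Of the genes called with all libraries, 1038 higher and 1196 lower ones were called without ctrl replicate 1 too, 99 and 94 were not, and 0 were called in the opposite direction. A further 624 higher and 260 lower genes were called only without it. The rises were the larger changes: 583 genes rose and 267 fell at least 4-fold, and 110 rose and 15 fell at least 32-fold. Where a gene is said to be among the 15 largest rises or falls, the ranking took only well-expressed genes. Their higher group mean was 50 CPM or more, their groups did not overlap, and they were called with and without ctrl replicate 1. Predicted gene models were left out. The 3 injured libraries resembled each other more than the 3 controls did, with a biological coefficient of variation of 0.241 after and 0.478 before injury. The value for the controls includes ctrl replicate 1 and was not computed without it. On the first principal component, which held 61.0% of the variance of the 6 libraries, the injured ones lay between 59.9 and 63.0, ctrl replicate 2 and 3 at -70.9 and -95.2, and ctrl replicate 1 at -17.1, between the injured and the other control libraries.

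**Figure D1:**
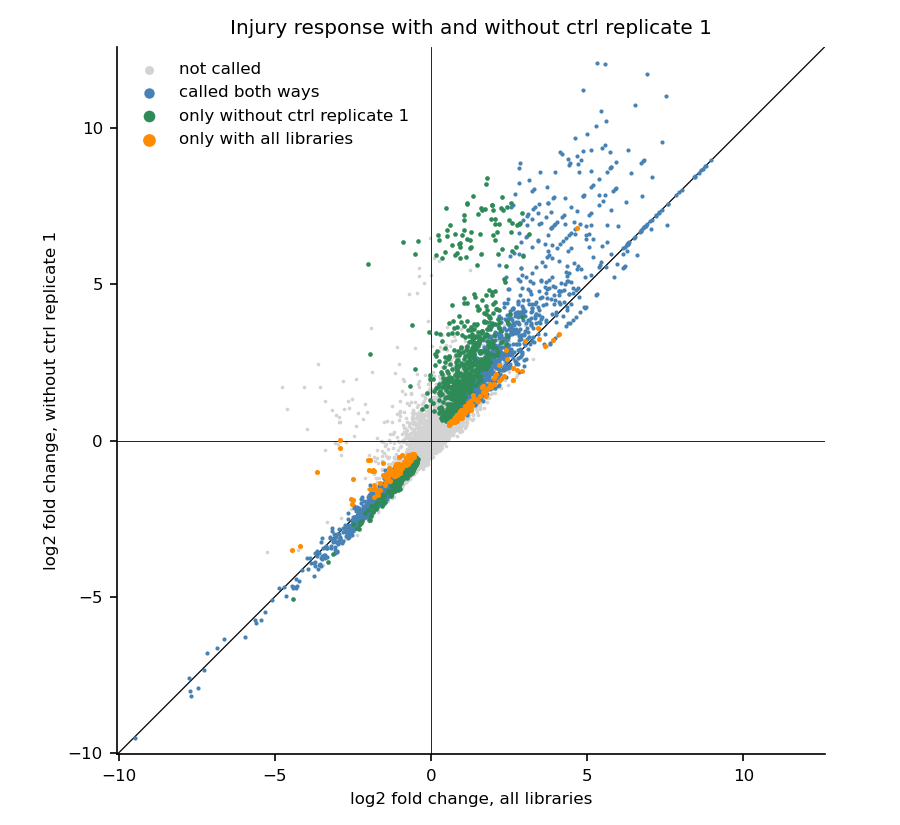
Log2 fold change of each gene (ctrl + CCl4 over ctrl) with all libraries on the x axis and without ctrl replicate 1 on the y axis, 1 point per gene tested both ways. Blue points were called both ways (1038 higher and 1196 lower), orange points with all libraries only (99 and 94), green points only without ctrl replicate 1 (624 and 260), and grey points neither way; no gene was called in opposite directions.

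Fold changes are relative to the bulk of genes, because TMM sets that bulk near no change: the median log2 fold change over all tested genes was 0.03, and 0.40 when libraries were scaled by their total counts. Scaled that way, 1974 genes were higher and 698 lower. Where that shift of 0.37 moved the larger of a list's 2 counts of calls by over 1.5 times, or turned the sign of its median, the values with library totals are given with the list. The gene lists hold 1697 genes in the table, 1423 of them tested. Of the tested ones, 110 had under 10 counts in every control and passed the filter through other libraries, so that counts over such genes describe the lists and support nothing further; 32 of them are mitotic genes and 14 replication genes. In the 6 lists of cell division genes 151 of 211 tested genes rose and 5 fell, a share of 71.6% against the 10.5% of all tested genes. In the 11 metabolic lists 240 of 396 fell (60.6% against 12%) and 13 rose, and in the 5 lists of secreted proteins 71 of 143 fell and 14 rose. In the 4 lists of cytoskeleton and adhesion genes 39 of 87 rose and 8 fell. The 3 lists of ribosome, ribosome assembly and proteasome genes (12 of 142 rose, 1 fell) and the 6 stress lists (8 of 156 rose, 16 fell) lay near or below the shares of all tested genes. With library totals, falls numbered 161 in the metabolic and 49 in the secreted protein lists, and rises 167 in the division, 47 in the cytoskeleton, 35 in the ribosome and proteasome and 19 in the stress lists.

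**Figure D2:**
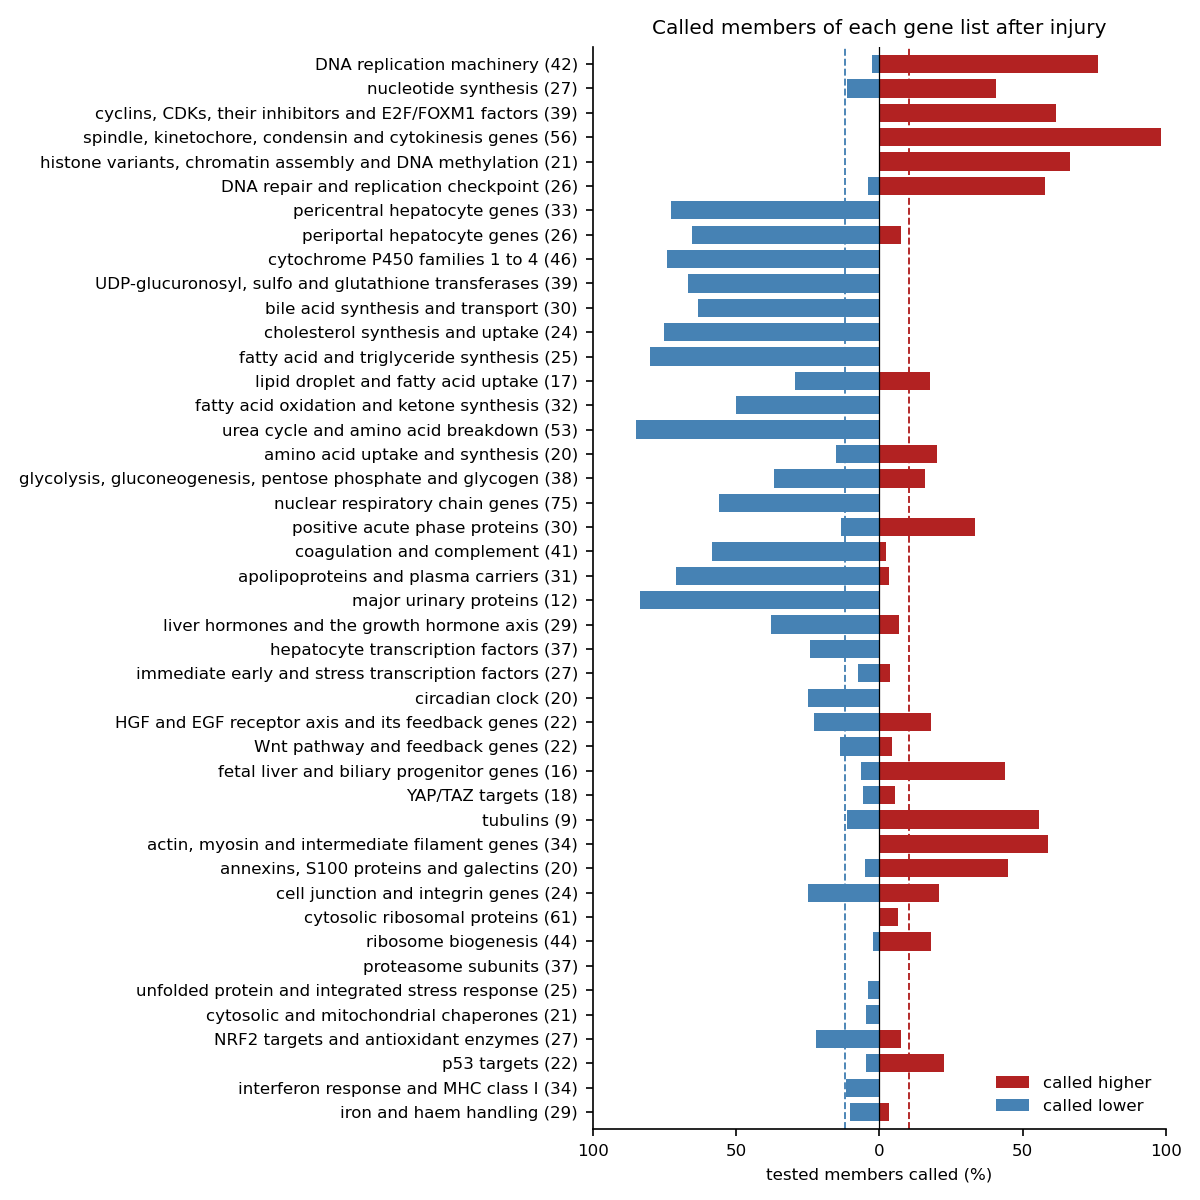
Share of tested members called higher (red, to the right) and called lower (blue, to the left) after injury, in percent, for 44 gene lists; the number of tested members follows each name. Dashed lines mark the shares of all tested genes, 10.5% higher and 12% lower. Division lists extend to the right and most metabolic and plasma protein lists to the left. The acute phase list and the amino acid uptake and synthesis list have more rises than falls.

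Genes that copy DNA rose together. Of 42 tested members of the replication machinery 32 rose and 1 fell, with a median log2 fold change of 2.42, and without ctrl replicate 1 there were 31 rises and 1 fall. The ring helicase that opens DNA ahead of the fork is encoded by Mcm2 to Mcm7, and Mcm7 read 20.2, 11.6 and 9.95 CPM in ctrl and 105, 81.8 and 116 CPM in ctrl + CCl4. Lig1, the ligase that joins the fragments of the lagging strand, read 39.9, 15.1 and 7.11 CPM in ctrl and 220.1, 174 and 204 CPM in ctrl + CCl4. Cdt1, which loads the helicase onto origins, read 8.64, 6.54 and 2.84 CPM in ctrl and 29.7, 32.3 and 47.7 CPM in ctrl + CCl4. The groups of all 3 genes were well apart, and the highest control was ctrl replicate 1 each time. The changes were 2.83 (SE 0.28, edgeR adjusted p = 1.07e-05), 3.22 (SE 0.40, edgeR adjusted p = 6.29e-05) and 2.54 (SE 0.36, edgeR adjusted p = 0.000187) in log2 units. Mcm10, which binds the helicase once origins fire, went the other way, from 35.4, 33.2 and 60.4 to 16.1, 17.1 and 23.2 CPM (log2 change -1.18 with SE 0.36, edgeR adjusted p = 0.0273), and its call was lost without ctrl replicate 3, ctrl + CCl4 replicate 1 or ctrl + CCl4 replicate 2 (edgeR adjusted p of 0.128, 0.0987 and 0.0942). Rfc1, a clamp loader subunit, did not pass the threshold at 65.8, 78.5 and 81.7 CPM before and 93.03, 100.4 and 97.6 CPM after injury (0.37, SE 0.18, edgeR adjusted p = 0.174).

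The supply of nucleotides moved less evenly, with 11 rises and 3 falls among 27 tested genes (median 0.74), and 7 rises and 3 falls without ctrl replicate 1. With all libraries the share of falls lay near the 12% of all tested genes. Rrm1, the large subunit of ribonucleotide reductase, read 12.3, 12.1 and 6.40 CPM in ctrl and 73.98, 64.7 and 109 CPM in ctrl + CCl4. Tk1, the thymidine kinase of dividing cells, read 30.9, 22.6 and 24.9 CPM in ctrl and 71.1, 94.9 and 76.4 CPM in ctrl + CCl4. The groups did not overlap for either gene. Tk1 rose by 1.62 (SE 0.30, edgeR adjusted p = 0.00129) in log2 units. The 3 falls were folate enzymes that feed carbon units to purines and to methylation: Mthfd1 (156, 177 and 249 to 77.6, 69.2 and 86.7 CPM, log2 change -1.31 with SE 0.23, edgeR adjusted p = 0.00105), Shmt1 (179.8, 139 and 153 to 96.7, 82.98 and 87.3 CPM, log2 fold change -0.82) and Shmt2 (179.8, 163 and 183 to 72.9, 103 and 131 CPM, log2 fold change -0.78). For Shmt2 the edgeR adjusted p was 0.0232, and the call was lost without ctrl replicate 3, ctrl + CCl4 replicate 1 or ctrl + CCl4 replicate 2 (edgeR adjusted p of 0.0613, 0.121 and 0.0727).

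The mitotic list had the largest share of rises of all lists. Of 56 tested members of the spindle, kinetochore, condensin and cytokinesis list 55 rose and 0 fell. The median was 5.12 in log2 units (4.96 when the 8 genes without a control count are set to their lower bounds), and without ctrl replicate 1 again 55 rose (median 6.92). Among 39 cyclins, cyclin-dependent kinases, their inhibitors and partner factors 24 rose and 0 fell (median 2.07, and 2.27 without ctrl replicate 1). Cdc20, which switches on the anaphase-promoting complex, read 1.23, 0 and 0 CPM in ctrl and 125, 95.5 and 83.4 CPM in ctrl + CCl4. Its 3 counts over all controls make the ratio of injured to control level 195, with a 95% counting interval of 66.4 to 945. Ccnb2, a cyclin of mitosis, read 1.23, 0 and 0.711 CPM in ctrl and 82.8, 75.4 and 78.9 CPM in ctrl + CCl4. Ccna2, the cyclin of DNA synthesis and early mitosis, read 1.65, 0.503 and 0 CPM in ctrl and 78.01, 57.96 and 67.98 CPM in ctrl + CCl4. Neither gene had more than 1.65 CPM in any control or less than 58.0 CPM in any injured library. Ccnb2 rose by 6.76 (SE 0.52, edgeR adjusted p = 1.89e-06) and Ccna2 by 6.25 (SE 0.54, edgeR adjusted p = 4.75e-06).

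Top2a, the topoisomerase that untangles sister chromosomes, read 27.6, 3.52 and 3.55 CPM in ctrl and 461, 429 and 388 CPM in ctrl + CCl4. Its highest control was ctrl replicate 1, and the change was 5.12 (SE 0.64, edgeR adjusted p = 6.11e-05) with that library and 6.89 (edgeR adjusted p = 7.43e-07) without it. Smc4, a condensin subunit that compacts chromosomes, was already present before injury and read 63.3, 34.2 and 39.1 CPM in ctrl and 539.9, 577 and 403 CPM in ctrl + CCl4 (log2 change 3.47 with SE 0.29, edgeR adjusted p = 3.56e-06). Mki67, the proliferation antigen Ki-67, had counts in ctrl replicate 1 alone among the controls (11.1, 0 and 0 CPM) and read 196, 262 and 159 CPM after injury (log2 change 5.58 with SE 0.77, edgeR adjusted p = 0.000144), so that its fold rests on that library. Tpx2, Ttk, Cenpe, Cenpf, Kif20b, Ckap2l and Cdca2, genes of the spindle and kinetochore, were also among the 15 largest rises of well-expressed genes. Their log2 fold changes ran from 5.60 (Cdca2) to 6.92 (Tpx2). For Tpx2, Ttk and Cdca2 the control counts came from ctrl replicate 1 as well (3.29, 0 and 0, 2.06, 0 and 0 and 2.88, 0 and 0 CPM).

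The values of Ccnd1 and Cdkn1a, which admit cells to the cycle or hold them back, moved when ctrl replicate 1 was left out. Ccnd1, the cyclin that carries growth signals into the cycle, read 156, 131 and 88.8 CPM in ctrl and 338, 257 and 354 CPM in ctrl + CCl4. The groups did not overlap, but the change of 1.33 (SE 0.47, edgeR adjusted p = 0.0535) missed the threshold, and without ctrl replicate 1 it passed (1.52, edgeR adjusted p = 0.0408). Cdkn1a, which encodes the inhibitor p21, read 128, 26.7 and 19.9 CPM in ctrl and 268, 221 and 258 CPM in ctrl + CCl4. Here ctrl replicate 1 was several times the other 2 controls and still below every injured library, and the rise of 2.07 (SE 0.53, edgeR adjusted p = 0.0114) became 3.41 (edgeR adjusted p = 1.26e-05) without it. Among 21 tested chromatin assembly and DNA methylation genes 14 rose, including Lmnb1 of the nuclear lamina (16.9, 13.6 and 10.7 to 145, 105 and 118 CPM, log2 change 3.14 with SE 0.25, edgeR adjusted p = 2.87e-06), the histone methyltransferase Ezh2 (24.7, 14.1 and 8.53 to 86.4, 84.5 and 94.7 CPM, log2 change 2.45 with SE 0.30, edgeR adjusted p = 5.62e-05) and the chromatin remodeller Hells (6.17, 0 and 2.13 to 63.4, 39.05 and 88.9 CPM, log2 fold change 4.40). Of 26 repair and checkpoint genes 15 rose and 1 fell. Chek1, the checkpoint kinase of stalled forks, had 1 count in the 3 controls together and 16.5, 7.02 and 15.8 CPM after injury, a ratio of injured to control of 74.8 (95% counting interval 13.2 to 2979). Exo1, a nuclease of mismatch repair, had 0 counts in the controls and 5.13, 5.19 and 6.44 CPM after injury, at least 10.9-fold higher against a floor of 3 counts over the group. The fall was Xpc, which recognizes DNA damage for nucleotide excision repair, from 33.7, 38.8 and 41.2 to 14.3, 14.3 and 15.8 CPM (log2 change -1.35 with SE 0.26, edgeR adjusted p = 0.00207).

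**Figure D3:**
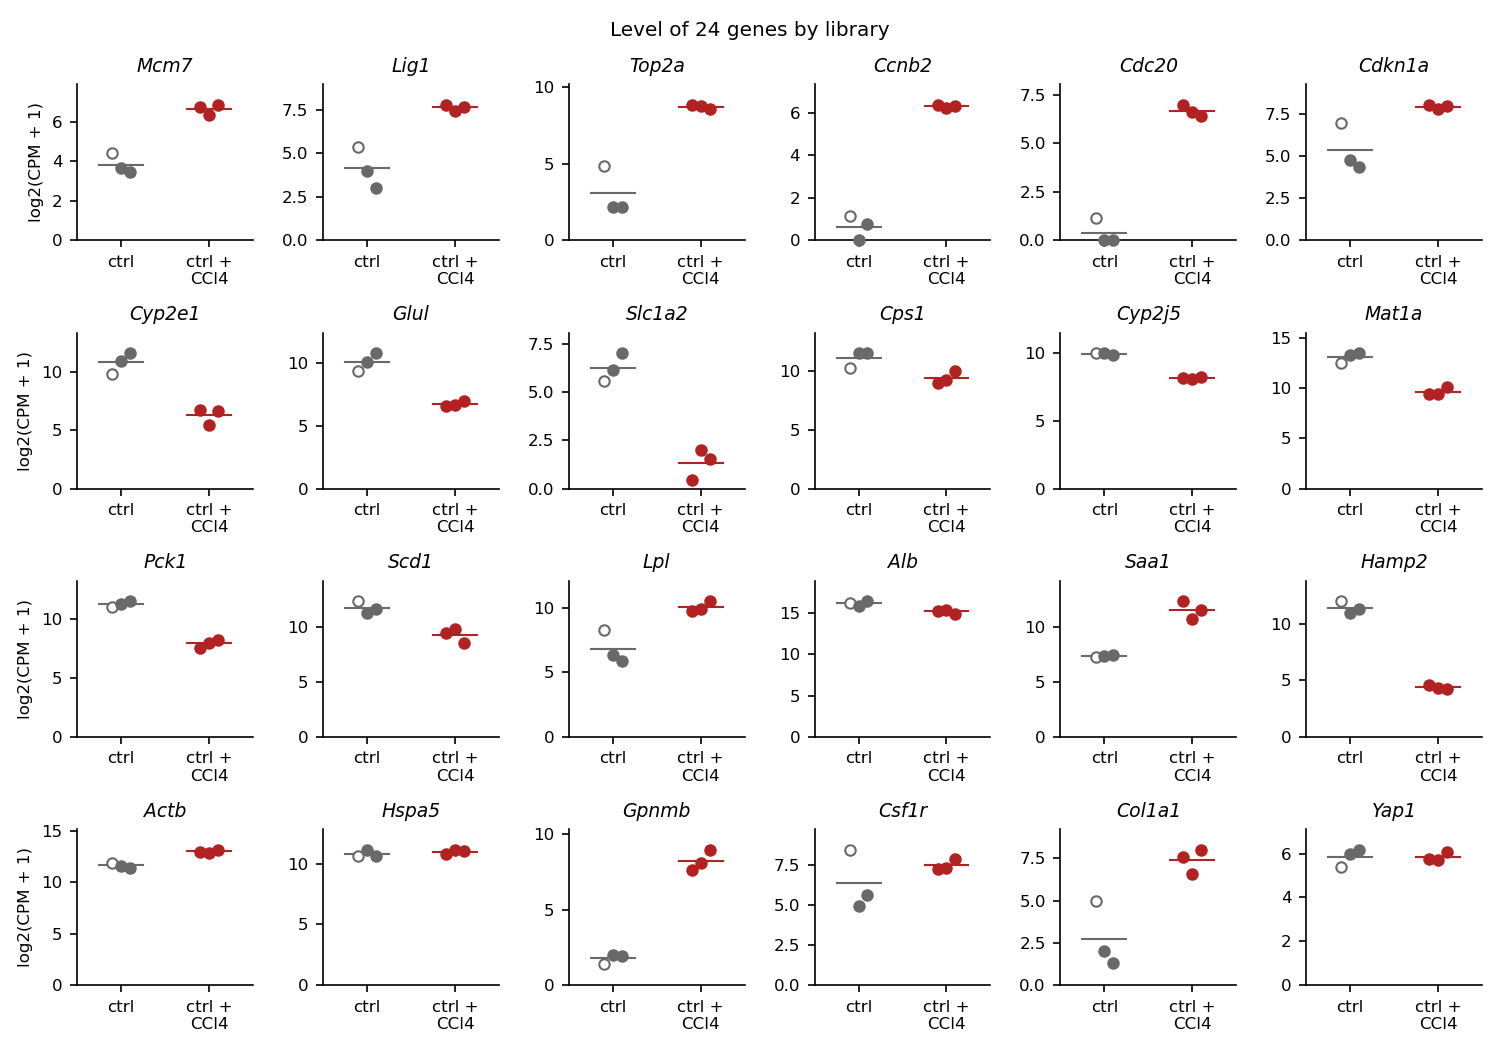
Level of 24 named genes in each of the 6 libraries, as log2(CPM + 1), with 1 panel per gene; grey points are ctrl, red points ctrl + CCl4, ctrl replicate 1 is drawn as an open circle and the horizontal bars are group means (n = 3). Cdc20 and Ccnb2 rise from near 0, the P450 and other metabolic genes fall, Hspa5 and Yap1 overlap, and in Cdkn1a, Lpl, Csf1r and Col1a1 the open circle lies above the other 2 controls.

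Genes of DNA replication and of mitosis are known to be switched on in turn, the former by E2F factors. The latter depend on repressor and activator complexes that read the CHR element, in promoters that often hold CCAAT boxes too. The 250 bases before the start site are shown for the 3 members of each list with the smallest adjusted p that hold an E2F or CHR match there, because these lists hold the machinery that copies and divides the genome. They come from RefSeq's GRCm38.p6 table, run 5′ to 3′ on the strand of the gene, and have in capitals each match on either strand to an E2F motif (TTTCCCGC, then TTTGGCGC or TTTCGCGC), to TTTGAA for the CHR element or to CCAAT.
Mcm7 (chr5:138171884-138172133, minus strand): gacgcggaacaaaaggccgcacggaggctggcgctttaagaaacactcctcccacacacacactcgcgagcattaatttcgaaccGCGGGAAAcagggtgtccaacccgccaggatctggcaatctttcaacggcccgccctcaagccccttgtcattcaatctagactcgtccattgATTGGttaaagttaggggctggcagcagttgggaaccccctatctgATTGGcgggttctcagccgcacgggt
Mcm2 (chr6:88898781-88899030, minus strand): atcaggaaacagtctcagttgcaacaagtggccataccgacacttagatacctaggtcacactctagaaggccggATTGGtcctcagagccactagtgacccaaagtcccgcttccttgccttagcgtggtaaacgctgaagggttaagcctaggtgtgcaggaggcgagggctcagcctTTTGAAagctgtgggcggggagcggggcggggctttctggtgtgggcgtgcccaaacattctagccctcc
Mcm5 (chr8:75109259-75109508, plus strand): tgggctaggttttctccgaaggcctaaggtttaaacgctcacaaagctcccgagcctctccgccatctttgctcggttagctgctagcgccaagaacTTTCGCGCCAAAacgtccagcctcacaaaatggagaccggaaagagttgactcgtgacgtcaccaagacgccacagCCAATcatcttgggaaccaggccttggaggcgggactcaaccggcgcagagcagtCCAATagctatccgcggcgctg
Ube2c (chr2:164769679-164769928, plus strand): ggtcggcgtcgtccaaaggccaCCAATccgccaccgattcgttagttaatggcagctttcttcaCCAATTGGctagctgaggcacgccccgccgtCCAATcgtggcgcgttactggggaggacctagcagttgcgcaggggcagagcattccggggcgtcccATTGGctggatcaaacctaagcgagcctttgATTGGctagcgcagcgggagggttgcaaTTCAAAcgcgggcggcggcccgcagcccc
Kif11 (chr19:37376132-37376381, plus strand): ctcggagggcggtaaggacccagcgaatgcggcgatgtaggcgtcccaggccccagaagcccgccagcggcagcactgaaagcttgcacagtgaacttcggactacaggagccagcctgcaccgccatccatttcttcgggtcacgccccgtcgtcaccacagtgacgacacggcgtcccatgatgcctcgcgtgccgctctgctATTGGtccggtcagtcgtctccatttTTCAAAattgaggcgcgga
Ncapg (chr5:45669675-45669924, plus strand): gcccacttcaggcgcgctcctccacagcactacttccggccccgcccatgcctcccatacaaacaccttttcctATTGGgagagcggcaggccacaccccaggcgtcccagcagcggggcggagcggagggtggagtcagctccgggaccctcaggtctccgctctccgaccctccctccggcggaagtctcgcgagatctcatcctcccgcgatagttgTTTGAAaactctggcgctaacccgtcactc
The printed stretches hold the CHR letters 29 bases before the start in Ube2c, 19 in Kif11 and 30 in Ncapg, each with at least 1 CCAAT match farther upstream, while the E2F letters of Mcm7 begin 165 bases and those of Mcm5 153 and 149 bases before it. In Mcm5 these 2 matches overlap. Mcm2, although a replication gene, has no E2F match in the printed stretch and instead holds CHR letters 70 bases before the start and a CCAAT match at 175. Over promoter windows from 250 bases before to 50 after the start, CHR letters were found in 39 of 53 promoters of the mitotic list (73.6%) and in 5 of 41 of the replication list (12.2%), against 17.9% of all 32851 promoters. E2F letters were found in 15 of 41 promoters of the replication list (36.6%) and in 4 of 53 of the mitotic list (7.55%), against 1.85% of all. CHR and CCAAT letters stood together in 56.6% of the mitotic promoters and 6.95% of all. These are matches of letters, and binding was not measured.

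Pericentral genes, those of the zone in which CCl4 is activated, were lower: 24 of 33 tested members fell and 0 rose (median -1.63), with the same counts without ctrl replicate 1. Cyp2e1, which turns CCl4 into its radical, read 945, 2049 and 3206 CPM in ctrl and 104, 44.2 and 101 CPM in ctrl + CCl4. Glul, the glutamine synthetase of the last rows of cells around the central vein, read 641, 1083 and 1727 CPM in ctrl and 90.5, 96.4 and 121 CPM in ctrl + CCl4. Slc1a2, the glutamate transporter of the same cells, read 47.7, 70.96 and 131 CPM in ctrl and 0.366, 3.05 and 1.93 CPM in ctrl + CCl4. No injured library of the 3 genes reached its lowest control. In all 3 genes the lowest control was ctrl replicate 1, and the falls of Cyp2e1 (-4.63, SE 0.46) and Glul (-3.48, SE 0.31) were -4.98 and -3.77 without it. Rnase4, a secreted ribonuclease and the most abundant pericentral member, fell less, from 2000.0, 2905 and 3698 to 1339, 1364 and 608 CPM (log2 change -1.38 with SE 0.34, edgeR adjusted p = 0.00994).

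Periportal genes were lower too, although that zone lies away from the activation of CCl4: 17 of 26 tested members fell and 2 rose (median -1.49). Cps1, the entry step of the urea cycle, read 1277, 3009 and 3005 CPM in ctrl and 520.4, 609.5 and 1049 CPM in ctrl + CCl4. Arg1, its last step, read 1770.0, 2559 and 4305 CPM in ctrl and 887, 1102 and 1253 CPM in ctrl + CCl4. Gls2, the glutaminase that supplies ammonia to that cycle, read 349, 174 and 392 CPM in ctrl and 45.4, 39.4 and 34.2 CPM in ctrl + CCl4. The groups did not overlap in any of these genes, with log2 fold changes of -1.74 (edgeR adjusted p = 0.00219), -1.41 (adjusted p = 0.00996) and -2.94 (adjusted p = 1.65e-05). The call of Arg1 did not hold once ctrl replicate 3 was left out (edgeR adjusted p = 0.0574). The 2 rises were Apoa4, an apolipoprotein that follows lipid load (26.7, 49.3 and 38.4 to 85.7, 113 and 137 CPM, log2 change 1.55 with SE 0.37, edgeR adjusted p = 0.00734), and the epithelial cadherin Cdh1 (138, 202 and 164 to 261, 357 and 221 CPM, edgeR adjusted p = 0.0397), whose call did not hold once ctrl replicate 1 was left out (0.61, edgeR adjusted p = 0.0955), ctrl replicate 3, ctrl + CCl4 replicate 1 or ctrl + CCl4 replicate 2.

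The cytochrome P450 families 1 to 4 made up 1.27, 1.68 and 1.90% of all counts in the controls and 0.491, 0.425 and 0.605% after injury. Of 80 genes 63 had counts and 46 were tested, of which 34 fell and 0 rose (median -1.94); without ctrl replicate 1 there were 33 falls and 3 rises, Cyp4f16 and the genes Cyp1b1 and Cyp4f18, which are better known from stellate and immune cells than from hepatocytes. Cyp3a11, the main drug oxidase of mouse liver, read 1223, 2642 and 3776 CPM in ctrl and 571, 448 and 1046 CPM in ctrl + CCl4 (log2 change -1.89 with SE 0.47, edgeR adjusted p = 0.0101), and the call was lost without ctrl replicate 3 or ctrl + CCl4 replicate 2 (edgeR adjusted p of 0.0505 and 0.0509). Cyp2j5, which acts on arachidonic acid, read 1033, 1013 and 923 CPM in ctrl and 285, 275 and 308 CPM in ctrl + CCl4, close together within each group (log2 change -1.77 with SE 0.18, edgeR adjusted p = 1.05e-05). Cyp2c38 read 72.4, 169.6 and 198 CPM in ctrl and 1.83, 1.53 and 3.54 CPM in ctrl + CCl4, a log2 change of -5.96, and Cyp2c50 and Cyp2c54 fell by 4.22 and 4.29. Reads shared among the near-identical Cyp2c genes could be split by the authors' counting, so the values of single family members are uncertain.

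Conjugating enzymes followed: 26 of 39 tested glucuronosyl, sulfo and glutathione transferases fell and 0 rose (median -1.40). Among the 15 largest falls of well-expressed genes were the sulfotransferases Sult3a1 (42.8, 61.4 and 59.7 to 0.366, 0.915 and 2.58 CPM, log2 change -5.33 with SE 0.68, edgeR adjusted p = 7e-05) and Sult2a8 (84.7, 115 and 293 to 13.6, 3.97 and 6.12 CPM, log2 change -4.38 with SE 0.51, edgeR adjusted p = 3.62e-05) and the carboxylesterase Ces3b (419, 357 and 516 to 10.99, 13.4 and 13.5 CPM, log2 change -5.08 with SE 0.30, edgeR adjusted p = 3.43e-07). Sult3a1 is known as female-biased in mouse liver. Gsta2 fell from 44.8, 28.7 and 31.3 to 1.10, 2.14 and 3.22 CPM and the more abundant Gsta3 from 1301, 1129.8 and 1684 to 625, 463 and 476 CPM (log2 fold changes -3.98 and -1.40). Gstm1, the most abundant glutathione transferase here, did not pass at 1404, 1647 and 2112 CPM before and 712, 1369.7 and 693 CPM after injury (-0.90, edgeR adjusted p = 0.0894).

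Amino acid breakdown had the largest share of falls among the metabolic lists, with 45 of 53 tested genes lower and 0 higher (median -1.97), and the same counts without ctrl replicate 1. Its share of all counts went from 2.89, 3.42 and 4.22% to 0.901, 0.861 and 1.34%. Mat1a, which makes the methyl donor S-adenosylmethionine and is the form of mature liver, read 6071, 10333 and 11675 CPM in ctrl and 702, 682 and 1080.2 CPM in ctrl + CCl4. Hpd of tyrosine breakdown read 1506, 2072 and 2674 CPM in ctrl and 149, 171 and 233 CPM in ctrl + CCl4. Otc of the urea cycle read 368, 452 and 596 CPM in ctrl and 79.8, 86.9 and 76.4 CPM in ctrl + CCl4. Every injured library of these genes was well below every control, and Mat1a fell by 3.51 (SE 0.34, edgeR adjusted p = 9.45e-06) and Hpd by 3.50 (SE 0.30, edgeR adjusted p = 4.6e-06) in log2 units. Uptake and synthesis of amino acids moved both ways, with 4 rises and 3 falls among 20, and 8 rises and 3 falls without ctrl replicate 1. With all libraries the share of rises lay above the 10.5% of all tested genes and that of falls near their 12%. The falls with all libraries were the transporters Slc38a4 (987, 1014 and 795 to 198, 253 and 238 CPM, log2 change -2.02 with SE 0.24, edgeR adjusted p = 3.82e-05), Slc38a3 (557, 573 and 982 to 192, 189 and 202 CPM, log2 fold change -1.86) and Slc7a2 (426, 557 and 397 to 176, 229 and 221 CPM, log2 fold change -1.14). Psat1, of serine synthesis, had 3 counts in the controls (0.823, 0.503 and 0 CPM) and 32.96, 26.8 and 23.2 CPM after injury, a ratio of injured to control of 53.3 (95% counting interval 18.02 to 260.1).

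Genes of glucose metabolism moved in both directions. Among 38 tested genes 6 rose and 14 fell, and without ctrl replicate 1 there were 10 rises and 16 falls. Of all tested genes 10.5% were higher and 12% lower with all libraries, so the rises lay nearer to that background than the falls. Pck1, the gate of gluconeogenesis, read 2085, 2497 and 2989 CPM in ctrl and 192, 253 and 308 CPM in ctrl + CCl4. G6pc, which releases free glucose, read 769, 495 and 506 CPM in ctrl and 146, 112 and 85.1 CPM in ctrl + CCl4. Both were lower in every injured library, by 3.33 (edgeR adjusted p = 0.000138) and 2.37 (adjusted p = 0.000129) in log2 units. The 6 rises included 3 enzymes of glycolysis, and other enzymes of that pathway did not pass. Aldoa rose from 96.7, 66.4 and 41.2 to 147, 188 and 189.8 CPM (log2 change 1.35 with SE 0.27, edgeR adjusted p = 0.00217), Pkm from 6.17, 3.52 and 2.84 to 73.6, 34.8 and 94.1 CPM (log2 change 3.94 with SE 0.44, edgeR adjusted p = 2.57e-05) and Ldha from 196, 259.7 and 289 to 427, 473 and 537 CPM (log2 change 0.95 with SE 0.23, edgeR adjusted p = 0.00922). Pkm and Aldoa are also made by macrophages. The 20 macrophage markers summed to 3721, 673 and 984 CPM in ctrl and 4578, 3493 and 6064 CPM in ctrl + CCl4, with 5 called higher and 1 lower, and the part of those cells in the rise of Pkm and Aldoa was not tested.

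Fat synthesis and fat burning were both lower. Of 25 tested genes of fatty acid and triglyceride synthesis 20 fell and 0 rose (median -1.54). With library totals there were 1 rise and 13 falls (median -1.13). Scd1, the desaturase, read 5316, 2491 and 3285 CPM in ctrl and 732, 907 and 388 CPM in ctrl + CCl4. Acss2, which activates acetate, read 246, 129 and 143 CPM in ctrl and 24.2, 12.2 and 21.9 CPM in ctrl + CCl4. Acacb, an acetyl-CoA carboxylase, read 70.3, 69.4 and 41.2 CPM in ctrl and 9.52, 3.66 and 8.05 CPM in ctrl + CCl4. Groups were apart in all 3, and the falls were -2.45 (edgeR adjusted p = 0.000164), -3.15 (adjusted p = 1.65e-05) and -3.10 (adjusted p = 2.33e-05) in log2 units. Thrsp, which follows the rate of fat synthesis, fell from 203, 247 and 1223 to 19.05, 24.1 and 40.9 CPM (log2 change -4.31 with SE 0.88, edgeR adjusted p = 0.00268). In fatty acid oxidation and ketone synthesis 16 of 32 fell and 0 rose (median -0.93). Without ctrl replicate 1 there were 20 falls, and there were 10 with library totals (median -0.55). Cyp4a10, a target of the fasting receptor PPAR alpha, read 147, 441 and 508 CPM in ctrl and 46.9, 50.03 and 56.7 CPM in ctrl + CCl4 (log2 change -2.83 with SE 0.40, edgeR adjusted p = 0.000181).

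Of 17 tested genes of lipid uptake and storage 3 rose and 5 fell (median -0.64), against 10.5% higher and 12% lower of all tested genes. The rises were Lpl, Cd36 and Plin2. Lpl, the lipoprotein lipase that adult hepatocytes hardly make, read 311, 79.5 and 56.9 CPM in ctrl and 875, 956 and 1475 CPM in ctrl + CCl4. Cd36, a fatty acid transporter, read 71.6, 34.2 and 30.6 CPM in ctrl and 117, 177 and 168 CPM in ctrl + CCl4. Plin2, the coat of lipid droplets, read 193, 273 and 215 CPM in ctrl and 379, 496 and 381 CPM in ctrl + CCl4. All 3 were higher in every injured library, by 2.88 (SE 0.50, edgeR adjusted p = 0.000921), 1.75 (SE 0.33, adjusted p = 0.00151) and 0.88 (SE 0.21, adjusted p = 0.0081) in log2 units. Lpl and Cd36 were highest among the controls in ctrl replicate 1, and both are made by macrophages as well, whose part was not tested. The hepatic lipase Lipc fell from 166, 263 and 236 to 38.8, 42.4 and 43.5 CPM (log2 change -2.41 with SE 0.24, edgeR adjusted p = 9.95e-06).

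Bile acid synthesis and transport had 19 falls and 0 rises among 30 tested genes (median -1.55). Slco1b2, which takes bile acids and drugs out of blood, read 2188, 3835 and 4032 CPM in ctrl and 638, 529.9 and 620.2 CPM in ctrl + CCl4 (log2 change -2.49 with SE 0.26, edgeR adjusted p = 1.52e-05). The sterol hydroxylase Cyp27a1 read 277, 305 and 417 CPM in ctrl and 34.1, 59.5 and 47.04 CPM in ctrl + CCl4. Cholesterol synthesis had 18 falls and 0 rises among 24 (median -0.92). Insig1, which holds back the sterol sensor, read 98.7, 109 and 154 CPM in ctrl and 28.6, 14.3 and 21.9 CPM in ctrl + CCl4 (log2 change -2.48 with SE 0.29, edgeR adjusted p = 3.27e-05). Tm7sf2, a sterol reductase, read 109.8, 55.4 and 174 CPM in ctrl and 14.7, 10.4 and 8.05 CPM in ctrl + CCl4 (log2 change -3.35 with SE 0.39, edgeR adjusted p = 3.38e-05). The falls of the cholesterol list rest in part on the scaling, since 3 of 24 were called lower with library totals (median -0.55). The same holds for the nuclear genes of the respiratory chain, of which 42 of 75 fell (median -0.83) and 7 with library totals (median -0.44). Sdhb of complex II, from 409.7, 319 and 505 to 162, 140.0 and 183 CPM, was among the falls (log2 change -1.35 with SE 0.24, edgeR adjusted p = 0.000962). Mitochondrially encoded genes took 11.6, 9.43 and 4.88% of counts in ctrl and 11.5, 18.3 and 7.001% in ctrl + CCl4, with overlap.

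**Figure D4:**
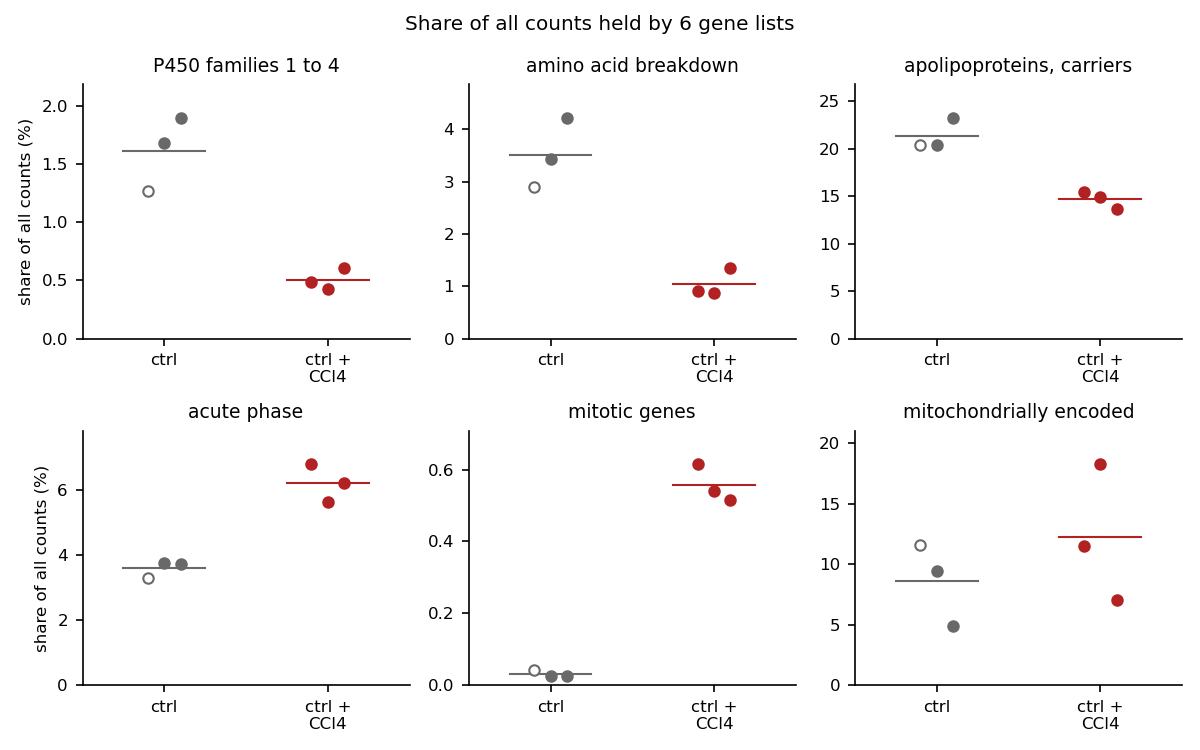
Share of all counts, in percent, held by 6 gene lists in each library (1 panel per list, axes start at 0); grey points are ctrl, red points ctrl + CCl4, the open circle is ctrl replicate 1 and bars are group means (n = 3). The P450, amino acid and plasma carrier shares are lower and the acute phase and mitotic shares higher in all 3 injured libraries, while the mitochondrially encoded share overlaps.

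The plasma proteins split. Apolipoproteins and carriers fell from 20.4, 20.4 and 23.3% of all counts to 15.5, 14.9 and 13.6%, and acute phase proteins went from 3.30, 3.75 and 3.74% to 6.80, 5.64 and 6.22%. Of 31 tested carriers 22 fell and 1, Apoa4, rose (median -0.99). Alb, serum albumin and the nuclear gene with the highest level, read 78300.4, 59511 and 88686 CPM in ctrl and 40378, 43700.3 and 31166 CPM in ctrl + CCl4 (log2 change -0.97 with SE 0.24, edgeR adjusted p = 0.0103). Apoa2, of high density lipoprotein, read 10979, 16236 and 20612 CPM in ctrl and 2584, 2661 and 2115 CPM in ctrl + CCl4 (log2 change -2.70 with SE 0.26, edgeR adjusted p = 8.34e-06). Serpina6, which carries cortisol and corticosterone, read 391, 327 and 407 CPM in ctrl and 15.02, 14.9 and 12.9 CPM in ctrl + CCl4, the steepest fall of the list (log2 change -4.71 with SE 0.29, edgeR adjusted p = 3.43e-07). Not every abundant plasma protein gene was called: Ahsg read 20521, 20773 and 18472 CPM in ctrl and 21031, 14779 and 16524 CPM in ctrl + CCl4 (-0.19, edgeR adjusted p = 0.542), Trf, transferrin, 9654, 11152 and 9509 CPM in ctrl and 9692, 10417 and 8648 CPM in ctrl + CCl4 (-0.08, edgeR adjusted p = 0.82), and Fgb, a fibrinogen chain, 10417, 9789.7 and 10498 CPM in ctrl and 9322, 9687 and 9048 CPM in ctrl + CCl4 (-0.13, edgeR adjusted p = 0.65).

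Acute phase genes were uneven, with 10 rises and 4 falls among 30 tested (median 0.50, and 0.35 without ctrl replicate 1). The share of falls lay near the 12% of all tested genes. With library totals there were 16 rises and 3 falls (median 0.86). Saa1 (chr7:46740497-46742980, GRCm38) read 146, 164 and 166 CPM in ctrl and 5039.6, 1636 and 2992 CPM in ctrl + CCl4. Saa2 (chr7:46751790-46754313), its neighbour on chromosome 7, read 82.3, 137 and 71.1 CPM in ctrl and 3264, 1087 and 2118 CPM in ctrl + CCl4. Lcn2, which starves bacteria of iron, read 22.2, 35.7 and 38.4 CPM in ctrl and 562, 591 and 629 CPM in ctrl + CCl4. Hpx, which clears haem, read 5327, 2877 and 3829.8 CPM in ctrl and 9898, 8339.8 and 7511 CPM in ctrl + CCl4. All were higher in every injured library, with ctrl + CCl4 replicate 2 the lowest of the injured for both Saa genes. Lcn2 rose by 4.22 (SE 0.28, edgeR adjusted p = 5.2e-07), Saa1 by 4.34 (SE 0.37, adjusted p = 3.97e-06), Saa2 by 4.48 (SE 0.45, adjusted p = 1.19e-05) and Hpx by 1.10 (SE 0.24, adjusted p = 0.00483) in log2 units. Saa1 and Saa2 are near-identical, so their reads could be split between them. The 4 falls included Saa4, the form made without inflammation (211, 245 and 601 to 73.3, 91.5 and 110.2 CPM, log2 change -1.94 with SE 0.37, edgeR adjusted p = 0.00164), Crp, which mice hardly raise in inflammation (536, 597 and 692 to 219.8, 246 and 199 CPM, log2 change -1.46 with SE 0.20, edgeR adjusted p = 0.000145), and Lbp, which binds endotoxin (103, 160.0 and 176 to 68.1, 67.4 and 51.9 CPM, log2 change -1.22 with SE 0.23, edgeR adjusted p = 0.00166).

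Of 41 tested coagulation and complement genes 24 fell and 1 rose (median -0.80). With library totals there were 2 rises and 12 falls (median -0.43). Serpinc1, antithrombin, read 2279, 2724 and 3341 CPM in ctrl and 843, 819 and 688 CPM in ctrl + CCl4 (log2 change -1.83 with SE 0.20, edgeR adjusted p = 2.4e-05). Plg, plasminogen, read 2704, 3369 and 2939.8 CPM in ctrl and 1213, 1599.8 and 1086 CPM in ctrl + CCl4 (log2 change -1.21 with SE 0.20, edgeR adjusted p = 0.0006). C8g, a chain of complement factor C8, fell from 440.1, 469 and 724 to 145, 101 and 103 CPM (log2 change -2.23 with SE 0.24, edgeR adjusted p = 2.16e-05), while C8a, another chain of the same factor, was the rise, from 173, 175 and 393 to 433, 673 and 332 CPM (edgeR adjusted p = 0.0491), with overlap of the groups. That call did not hold once ctrl replicate 1 was left out (0.76, edgeR adjusted p = 0.117), ctrl replicate 2, ctrl + CCl4 replicate 1 or ctrl + CCl4 replicate 2. Of 12 tested major urinary protein genes 10 fell and 0 rose (median -2.57). Mup3 read 1238, 1229 and 4382 CPM in ctrl and 397, 445 and 271 CPM in ctrl + CCl4 (log2 change -2.62 with SE 0.45, edgeR adjusted p = 0.000743), a fall that was -1.73 without ctrl replicate 3, where it was highest. Reads of this near-identical family could be split among its members. Among liver hormones and the growth hormone axis 11 of 29 fell and 2 rose (7 falls and 2 rises with library totals). Ghr, the growth hormone receptor, fell from 401, 354 and 499 to 117, 103 and 97.6 CPM (log2 change -1.98 with SE 0.20, edgeR adjusted p = 1.35e-05), Igfbp2 from 489, 1067 and 724 to 144, 164 and 121 CPM (log2 change -2.41 with SE 0.29, edgeR adjusted p = 3.94e-05) and angiotensinogen, Agt, from 733, 850.0 and 883 to 309.8, 349.9 and 325 CPM (log2 change -1.32 with SE 0.20, edgeR adjusted p = 0.000313).

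Hepcidin and its paralog parted. Hamp2 (chr7:30922372-30924681) read 4058, 1953 and 2466 CPM in ctrl and 22.7, 19.2 and 17.4 CPM in ctrl + CCl4, among the 15 largest falls of well-expressed genes (log2 change -7.16 with SE 0.53, edgeR adjusted p = 1.28e-06). Hamp, the hormone that closes the iron exporter, read 988, 1797 and 1006 CPM in ctrl and 1695, 1655 and 1706 CPM in ctrl + CCl4 and did not pass (0.42, SE 0.33, edgeR adjusted p = 0.406). The genes are close paralogs, so reads could be split between them. Of 29 tested iron and haem genes 1 rose and 3 fell (median -0.33). These shares lay below or near those of all tested genes, 10.5% higher and 12% lower. Without ctrl replicate 1 there were 3 rises and 6 falls among 30, and with library totals 4 rises and 3 falls (median 0.04). With all libraries the other falls were Tmprss6, which restrains hepcidin (227, 223 and 349.7 to 88.999, 80.2 and 101 CPM, log2 change -1.56 with SE 0.22, edgeR adjusted p = 0.00014), and Tfr2, an iron sensor (197, 212 and 267 to 116, 128 and 96.7 CPM, log2 change -0.99 with SE 0.21, edgeR adjusted p = 0.00328). The rise was Id1, a target of bone morphogenetic proteins, from 57.999, 14.6 and 21.3 to 162, 131 and 128 CPM (log2 change 2.14 with SE 0.54, edgeR adjusted p = 0.0103; 2.98, edgeR adjusted p = 0.000881 without ctrl replicate 1).

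Of 37 tested transcription factors of hepatocyte identity 9 fell and 0 rose (median -0.52), and 14 fell and 1 rose without ctrl replicate 1. The falls rest in part on the scaling, since with library totals there were 1 rise and 3 falls (median -0.15). Cebpa, which supports metabolism and slows division, read 241, 329 and 326 CPM in ctrl and 119, 91.2 and 129.5 CPM in ctrl + CCl4 (log2 change -1.40 with SE 0.25, edgeR adjusted p = 0.00111). Klf15, which drives amino acid breakdown, read 106, 79.01 and 149 CPM in ctrl and 13.2, 10.1 and 25.8 CPM in ctrl + CCl4 (log2 change -2.76 with SE 0.45, edgeR adjusted p = 0.000559). Nr1h4, the bile acid receptor FXR, read 48.9, 67.4 and 109 CPM in ctrl and 26.004, 27.8 and 25.8 CPM in ctrl + CCl4 (log2 change -1.49 with SE 0.30, edgeR adjusted p = 0.00259). Hnf4a, the central factor of the hepatocyte programme, read 248, 309 and 398 CPM in ctrl and 207, 182 and 175 CPM in ctrl + CCl4, a smaller change (log2 change -0.76 with SE 0.24, edgeR adjusted p = 0.0332). Its call held without ctrl replicate 1 and was lost without any 1 of the other 5 libraries and with library totals. Among 20 clock genes 5 fell and 0 rose, against 1 rise and 1 fall (median -0.64) with library totals. With all libraries the largest fall was that of Rgs16, from 21.4, 118 and 295 to 0.366, 1.22 and 0.322 CPM. Collection times are not given in the labels, so clock time and injury cannot be told apart for these genes. Of 27 immediate early genes 1 rose (Egr2, 0.823, 0.503 and 0 to 8.79, 14.9 and 10.95 CPM, a ratio of injured to control of 22.8 with a 95% counting interval of 7.59 to 112) and 2, Ier2 and Klf9, fell, while 8 rose without ctrl replicate 1, Fos, Fosb, Egr2, Ier3, Ier5, Klf6, Nr4a1 and Ets2. With library totals there were 2 rises and 1 fall (median 0.59). With all libraries both shares lay below those of all tested genes, 10.5% higher and 12% lower. Klf9, a glucocorticoid target, fell from 548, 569 and 614 to 220.1, 177 and 226 CPM (log2 change -1.48 with SE 0.28, edgeR adjusted p = 0.00176).

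Growth factor signals moved in both directions, with 4 rises and 5 falls among 22 tested genes (median -0.32, and 0.03 with library totals). Both shares lay somewhat above those of all tested genes, 10.5% higher and 12% lower. Hgf, the growth factor that stellate cells send to hepatocytes, read 4.52, 4.03 and 2.13 CPM in ctrl and 15.7, 16.2 and 10.6 CPM in ctrl + CCl4 (log2 change 1.94 with SE 0.48, edgeR adjusted p = 0.0094). Hgfac, the liver enzyme that activates it, read 245, 267 and 200.4 CPM in ctrl and 42.5, 61.3 and 66.05 CPM in ctrl + CCl4 (log2 change -2.07 with SE 0.22, edgeR adjusted p = 1.65e-05). Egfr, the receptor of epidermal growth factor, read 151, 305 and 339.8 CPM in ctrl and 183, 165 and 140.1 CPM in ctrl + CCl4 and did not pass with all libraries (-0.70, edgeR adjusted p = 0.139), but did without ctrl replicate 1 (-0.99, edgeR adjusted p = 0.0197). Of 22 Wnt pathway genes 1 rose and 3 fell (median -0.15), against 2 rises and 1 fall (median 0.21) with library totals. With all libraries the falls lay near the 12% of all tested genes and the rises below their 10.5%. Notum, a Wnt feedback gene of the cells next to the central vein, read 24.3, 60.9 and 44.8 CPM in ctrl and 6.59, 5.80 and 7.73 CPM in ctrl + CCl4 (log2 change -2.68 with SE 0.41, edgeR adjusted p = 0.000305). Of 16 tested fetal liver and biliary genes 7 rose and 1 fell. Afp, alpha-fetoprotein, read 2.06, 1.01 and 0.711 CPM in ctrl and 17.2, 6.71 and 69.6 CPM in ctrl + CCl4, with ctrl + CCl4 replicate 3 far above the other 2 injured libraries (log2 change 4.49 with SE 0.88, edgeR adjusted p = 0.0021). Without that library the change was 3.12 (edgeR adjusted p = 0.0128). Spp1, osteopontin, read 32.1, 10.6 and 17.8 CPM in ctrl and 345, 291 and 416 CPM in ctrl + CCl4. Krt8, a keratin of hepatocytes and bile ducts, read 23.9, 26.2 and 49.04 CPM in ctrl and 80.9, 80.2 and 64.1 CPM in ctrl + CCl4 (log2 fold changes 4.10 and 1.20). The call of Krt8 did not hold once ctrl replicate 2 was left out (edgeR adjusted p = 0.0597).

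YAP and TAZ, whose genes are floxed in these mice, are cofactors that drive growth genes. Yap1 read 40.3, 61.9 and 71.8 CPM in ctrl and 53.5, 50.6 and 65.7 CPM in ctrl + CCl4 and Wwtr1, the gene of TAZ, 57.6, 24.2 and 34.8 CPM in ctrl and 33.7, 32.6 and 34.8 CPM in ctrl + CCl4. The groups overlapped for both genes, the log2 fold changes were -0.03 (95% interval -0.63 to 0.57) and -0.21 (-0.87 to 0.44), and scaling by library totals turned both signs (0.37 and 0.16). Of 18 tested target genes 1 rose and 1 fell, shares below the 10.5% and 12% of all tested genes. Without ctrl replicate 1 there were 4 rises and 0 falls, and with library totals 2 rises and 0 falls (median 0.45). Myof, a membrane repair gene, read 15.2, 3.02 and 4.98 CPM in ctrl and 97.1, 70.8 and 109.5 CPM in ctrl + CCl4 and rose either way. Axl, a receptor kinase also made by macrophages, read 90.1, 14.1 and 31.3 CPM in ctrl and 77.6, 102 and 111 CPM in ctrl + CCl4, and its change was 1.08 (edgeR adjusted p = 0.177) with and 2.12 (edgeR adjusted p = 0.00514) without ctrl replicate 1.

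Cytoskeletal genes were higher. Of 34 tested actin, myosin and intermediate filament genes 20 rose and 0 fell (median 1.17). Actb, beta-actin, read 3809, 3026 and 2720.2 CPM in ctrl and 7984, 7252 and 9147 CPM in ctrl + CCl4 (log2 change 1.35 with SE 0.21, edgeR adjusted p = 0.000416). Tagln2 read 112, 32.7 and 34.8 CPM in ctrl and 351, 417 and 342 CPM in ctrl + CCl4 and Flna, which links actin filaments, 28.8, 7.05 and 5.69 CPM in ctrl and 131, 149 and 125 CPM in ctrl + CCl4 (log2 fold changes 2.61 and 3.22). Groups were apart in all 3. Among 9 tubulins 5 rose and 1 fell: Tubb5, a building block of spindles, read 211, 116 and 91.7 CPM in ctrl and 778, 602 and 771 CPM in ctrl + CCl4 (log2 change 2.36 with SE 0.28, edgeR adjusted p = 3.8e-05), Tuba1b read 107, 37.7 and 70.4 CPM in ctrl and 401, 374 and 394 CPM in ctrl + CCl4 (log2 change 2.44 with SE 0.36, edgeR adjusted p = 0.000232). The one that fell, Tuba4a, read 243, 380.0 and 397 CPM in ctrl and 177, 227 and 191 CPM in ctrl + CCl4 (log2 change -0.78 with SE 0.26, edgeR adjusted p = 0.0414), a call lost without any 1 library but ctrl replicate 1. Of 20 annexins, S100 proteins and galectins 9 rose and 1 fell (12 rises and 0 falls without ctrl replicate 1). S100a6, a calcium-binding protein of injured and dividing cells, read 19.3, 5.54 and 4.98 CPM in ctrl and 173, 97.01 and 218 CPM in ctrl + CCl4 (log2 change 3.96 with SE 0.46, edgeR adjusted p = 3.2e-05). S100a4, better known from macrophages and fibroblasts, read 2.88, 2.01 and 2.13 CPM in ctrl and 90.5, 86.6 and 135 CPM in ctrl + CCl4 (log2 change 5.42 with SE 0.45, edgeR adjusted p = 3.56e-06). In the junction and integrin list 5 of 24 rose and 6 fell, against 10.5% and 12% of all tested genes. Gjb1, connexin 32, the gap junction of hepatocytes, read 776, 695 and 753 CPM in ctrl and 328, 423 and 349.9 CPM in ctrl + CCl4 (log2 change -1.01 with SE 0.18, edgeR adjusted p = 0.000932). The hyaluronan receptor Cd44 read 71.2, 15.6 and 29.9 CPM in ctrl and 171, 129 and 198 CPM in ctrl + CCl4 (log2 change 2.08 with SE 0.48, edgeR adjusted p = 0.00647), and integrin alpha V, Itgav, 17.3, 9.56 and 10.7 CPM in ctrl and 39.2, 36.9 and 42.2 CPM in ctrl + CCl4 (log2 change 1.63 with SE 0.35, edgeR adjusted p = 0.00373).

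Few ribosomal protein, proteasome, unfolded protein response and chaperone genes were called against the bulk of genes. Ribosome assembly genes rose in a share above the 10.5% of all tested genes. Of 61 tested ribosomal protein genes 4 rose and 0 fell (median 0.17), 7 rose without ctrl replicate 1, and 14 rose with library totals (median 0.55). Of 44 ribosome assembly genes 8 rose and 1 fell (median 0.53), and 20 rose with library totals. Scaled that way, 1974 of all 10780 tested genes rose. Ncl, nucleolin, read 380.5, 418 and 303 CPM in ctrl and 720.4, 693 and 664 CPM in ctrl + CCl4 (log2 change 0.92 with SE 0.19, edgeR adjusted p = 0.00271). Nop58, of the nucleolar particles that methylate RNA, read 32.1, 58.4 and 24.9 CPM in ctrl and 144, 147 and 124 CPM in ctrl + CCl4 (log2 change 1.84 with SE 0.27, edgeR adjusted p = 0.000244). Among 37 proteasome subunits 0 were called by edgeR (median -0.12, and 0.25 with library totals), among 25 unfolded protein response genes 1 fell, and among 21 chaperones 1 fell. Without ctrl replicate 1 the latter lists had 3 and 2 falls. With library totals their medians of -0.03 and -0.10 became 0.31 and 0.28, and the chaperones had 4 rises and 0 falls. Hspa5, the main chaperone of the secretory pathway, read 1587, 2267 and 1584 CPM in ctrl and 1811, 2214 and 2060.0 CPM in ctrl + CCl4 (0.16, edgeR adjusted p = 0.757). Herpud1, which helps clear misfolded proteins, was the fall of the unfolded protein list, from 269, 274 and 339.8 to 126, 100.1 and 95.04 CPM (log2 change -1.46 with SE 0.29, edgeR adjusted p = 0.00214).

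Antioxidant genes were mixed, with 2 rises and 6 falls among 27 (median -0.27). The share of rises lay below the 10.5% of all tested genes and that of falls above their 12%. Without ctrl replicate 1 there were 4 rises and 6 falls, and with library totals 4 rises and 6 falls (median 0.07). Cat, catalase, read 1754, 2435 and 3371 CPM in ctrl and 524, 444 and 539 CPM in ctrl + CCl4 (log2 change -2.33 with SE 0.24, edgeR adjusted p = 1.49e-05). Gpx1, a glutathione peroxidase, read 4120.4, 2735 and 4351 CPM in ctrl and 1065, 843 and 1473 CPM in ctrl + CCl4 (log2 change -1.73 with SE 0.25, edgeR adjusted p = 0.000205). Nfe2l2, the gene of NRF2 itself, rose from 105, 119 and 99.5 to 199, 192 and 243 CPM (log2 change 0.97 with SE 0.22, edgeR adjusted p = 0.00514). Of 22 p53 targets 5 rose and 1 fell, against 10.5% higher and 12% lower of all tested genes. Among the 22, 4 had under 10 counts in every control and passed the filter through other libraries. Whether p53 drove these changes was not tested. Mdm2, which restrains p53, read 23.4, 20.6 and 24.9 CPM in ctrl and 45.05, 56.1 and 53.2 CPM in ctrl + CCl4 (log2 change 1.16 with SE 0.22, edgeR adjusted p = 0.00183). Bbc3, the cell death gene Puma, read 36.6, 39.8 and 68.9 CPM in ctrl and 13.9, 4.88 and 9.34 CPM in ctrl + CCl4 (log2 change -2.36 with SE 0.43, edgeR adjusted p = 0.00125). Interferon and MHC class I genes had 0 rises and 4 falls among 34 (median -0.12), against 1 rise and 3 falls without ctrl replicate 1 (median 0.12) and 0 rises and 2 falls (median 0.26) with library totals. With all libraries the share of falls lay near the 12% of all tested genes. The falls included H2-K1, a class I heavy chain, from 1533, 1914 and 1773 to 693, 681 and 837 CPM (log2 change -1.24 with SE 0.25, edgeR adjusted p = 0.00238), and the interferon-induced GTPase Iigp1, from 651, 923 and 1045 to 377, 301 and 222 CPM (log2 change -1.54 with SE 0.26, edgeR adjusted p = 0.000647).

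Transcripts of other cells were present in the sorted fractions and differed between the groups. Beside the macrophage and Kupffer cell markers given above, the 16 monocyte, neutrophil and lipid-associated macrophage markers summed to 125, 31.7 and 44.1 CPM in ctrl and 927, 804 and 1266 CPM in ctrl + CCl4. The 20 stellate cell and fibroblast markers summed to 2132, 509 and 724 CPM before and 2109, 1566 and 2692 CPM after injury. The 20 endothelial markers, given above for ctrl, summed to 1658, 1836 and 1557 CPM after injury. In the macrophage, stellate and endothelial lists ctrl replicate 1 lay above at least 1 injured library, and the calls turned on it. With it 5 of 20 macrophage genes rose and 1 fell, and without it 16 rose and 0 fell. For stellate genes the counts were 7 rises and 1 fall with it and 13 rises and 0 falls without it, and for endothelial genes 0 with it and 5 rises without it. In the monocyte list 11 of 14 tested genes were higher with and 13 without that library, and the median log2 fold change went from 3.28 to 5.20. Of these 14 genes 9 had under 10 counts in every control and passed the filter through other libraries. The counts and medians of the monocyte list therefore describe it and support nothing further. With library totals and all libraries, 8 macrophage genes rose, and the median of the endothelial list turned from -0.10 to 0.24.

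Gpnmb, a lysosomal glycoprotein of lipid-laden macrophages, read 1.65, 3.02 and 2.84 CPM in ctrl and 201, 271 and 509.7 CPM in ctrl + CCl4. Mmp12, the macrophage elastase, read 2.06, 1.51 and 2.84 CPM in ctrl and 250.1, 252 and 253 CPM in ctrl + CCl4. F13a1, a clotting factor chain carried by monocytes, read 2.06, 0.503 and 0 CPM in ctrl and 71.4, 39.4 and 59.9 CPM in ctrl + CCl4. These were among the 15 largest rises of well-expressed genes (log2 fold changes 7.04, 6.89 and 5.76, edgeR adjusted p = 5.17e-07, 5.17e-07 and 2.85e-05), and no control, ctrl replicate 1 included, came near an injured library. Trem2, a lipid receptor of such macrophages, had 3 counts over the controls and 30.4, 30.2 and 70.6 CPM after injury, a ratio of injured to control of 85.4 (95% counting interval 29.03 to 416). The resident Kupffer cell gene Clec4f gave no such picture: it read 254, 39.8 and 82.5 CPM in ctrl and 89.7, 50.9 and 77.6 CPM in ctrl + CCl4, and its change was -0.79 with and 0.26 without ctrl replicate 1, neither of which passed (edgeR adjusted p = 0.369 and 0.738). Clec4f does not stand for its list, in which 16 of 20 genes rose without ctrl replicate 1. In unscaled counts Marco went from 102, 25 and 12 in ctrl to 467, 583 and 827 in ctrl + CCl4. Cd163 of the same list went from 167, 22 and 21 to 24, 18 and 33. Csf1r, the growth factor receptor of all macrophages, read 353, 30.2 and 49.04 CPM in ctrl and 152, 159 and 231 CPM in ctrl + CCl4 (0.32, edgeR adjusted p = 0.775; 2.20, edgeR adjusted p = 0.00151 without ctrl replicate 1).

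Col1a1, the fibrillar collagen of scars, read 30.03, 3.02 and 1.42 CPM in ctrl and 188, 95.5 and 258 CPM in ctrl + CCl4. Acta2, the actin of activated stellate cells, read 14.4, 1.01 and 1.42 CPM in ctrl and 91.9, 50.3 and 107 CPM in ctrl + CCl4. Both were higher in every injured library than in any control (3.87 and 3.74, edgeR adjusted p = 0.00192 and 0.000847), and without ctrl replicate 1 the changes were 6.25 and 6.08. Sparc, a matrix protein, read 482, 74.5 and 128 CPM in ctrl and 493, 389 and 565 CPM in ctrl + CCl4 and passed only without that library (2.26, edgeR adjusted p = 0.00238). Of 14 cholangiocyte markers 5 were tested and 2 rose, Spp1 and Cd24a, the latter a call lost without any 1 library but ctrl replicate 1. Of the lymphocyte markers 3 of 18 were tested and edgeR called 0 with or without ctrl replicate 1. The erythroid genes Hba-a1 and Hbb-bs, whose near-identical copies could share reads, were high in ctrl replicate 1. Hba-a1 read 457, 5.54 and 49.8 CPM in ctrl and 32.6, 34.5 and 11.6 CPM in ctrl + CCl4, and Hbb-bs read 579, 9.56 and 46.9 CPM in ctrl and 46.9, 25.9 and 11.9 CPM in ctrl + CCl4. The fall of Hbb-bs with all libraries (-2.92, edgeR adjusted p = 0.0375) was 0.03 (edgeR adjusted p = 0.973) without ctrl replicate 1. The part of other cells in the rises of genes that hepatocytes also make, among them Lpl, Cd36, Cd44, Actb and Spp1, was not tested. Without ctrl replicate 1 the median log2 fold changes of the pericentral, amino acid, plasma carrier and P450 lists were -1.85, -2.01, -1.10 and -1.75, against -1.63, -1.97, -0.99 and -1.94 with it.

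**Figure D5:**
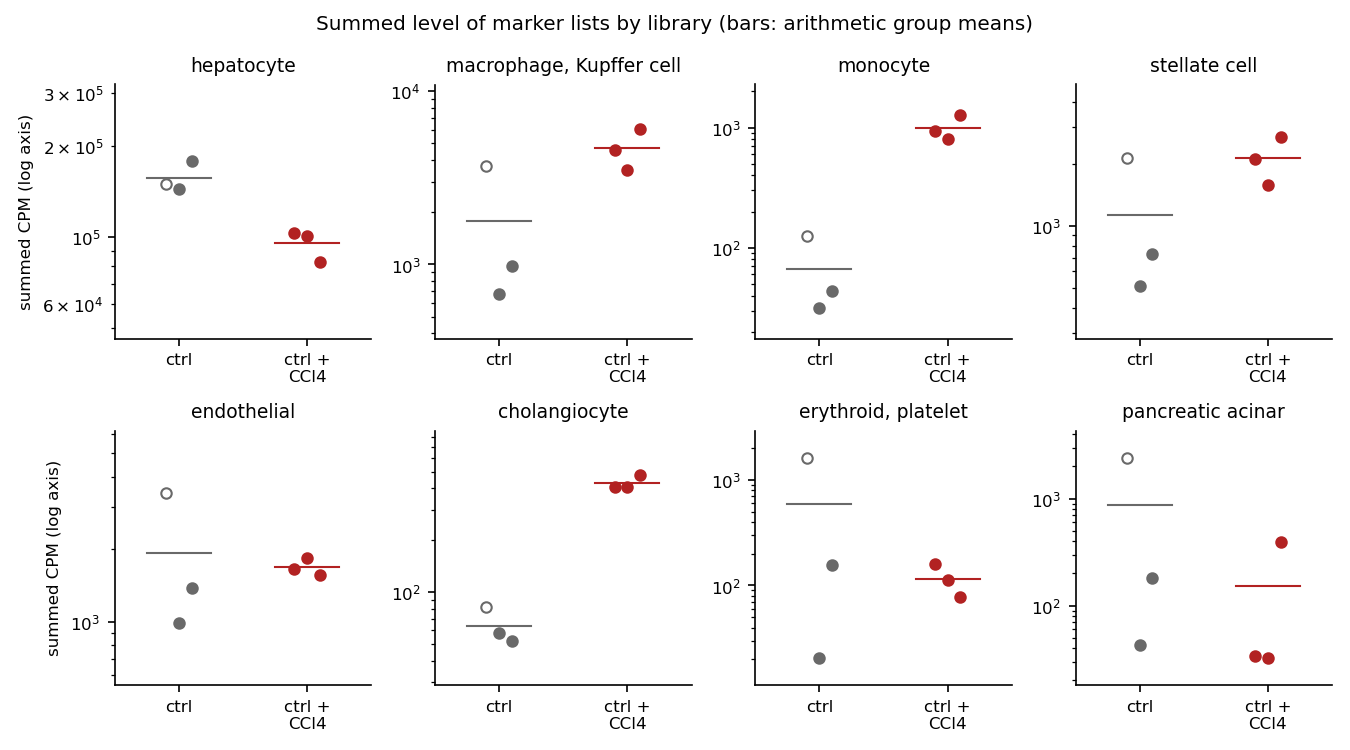
Summed CPM (log axis) of the marker lists of 8 cell types in each library; grey points are ctrl, red points ctrl + CCl4, the open circle is ctrl replicate 1 and bars are group means (n = 3). In the acinar, erythroid and endothelial lists the open circle lies above all other libraries, and the monocyte and cholangiocyte lists are higher in all 3 injured libraries than in any control. Most of the cholangiocyte sum after injury is Spp1 (942, 953 and 1291 counts), while Krt19, Krt7 and Epcam had 14 counts or fewer in every library.

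Some large changes were lost without ctrl replicate 1. Cyp2c69, a P450 known as female-biased in mouse liver, read 872, 87.6 and 13.5 CPM in ctrl and 32.6, 13.1 and 32.2 CPM in ctrl + CCl4, and its log2 change of -3.65 (edgeR adjusted p = 0.0275) became -0.99 (edgeR adjusted p = 0.378) without it. A1bg, chosen after its values were seen and also known as female-biased, read 1284, 19.6 and 24.9 CPM in ctrl and 26.004, 4.27 and 55.7 CPM in ctrl + CCl4. It was called neither with that library (edgeR adjusted p = 0.0721) nor without it (edgeR adjusted p = 0.838). The genes gained without that library with the smallest adjusted p included Irf8, a factor of monocytes and dendritic cells (89.3, 9.06 and 19.2 to 75.4, 85.1 and 118 CPM, 2.75, edgeR adjusted p = 0.000255 without ctrl replicate 1), Vcam1, an adhesion molecule for leukocytes (108, 20.6 and 2.84 to 142, 125 and 156 CPM, 3.51, edgeR adjusted p = 0.000217), and Gpx3, the plasma glutathione peroxidase (12.8, 0 and 0 to 11.4, 14.6 and 23.2 CPM, edgeR adjusted p = 7.68e-05, with 0 counts in the 2 controls that were left).

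A set of abundant genes held their level within tight limits. Of 1008 genes with at least 100 CPM in both groups 371 were called, and for 112 the 95% interval of the change lay within 1.5-fold of no change. The narrowest were Hadha of fatty acid oxidation (299.9, 349 and 336 to 317, 316 and 325 CPM, 95% interval -0.42 to 0.34 in log2 units), Csnk1a1, casein kinase 1 alpha (-0.41 to 0.35), Gabarap of autophagy (-0.43 to 0.38), the respiratory chain subunit Ndufa11 (-0.42 to 0.40) and the RNA helicase Ddx5 (-0.40 to 0.39). These limits are relative to the bulk of genes and would shift by the 0.37 between the 2 scalings.

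The injury response of hepatocytes without Yap1 and Wwtr1 was set beside that of the controls. The test of the difference between the injury responses of the 2 genotypes called 0 of 10780 genes with edgeR (874 had an unadjusted p under 0.05, and the smallest adjusted p was 0.490), and 0 of 11082 without ctrl replicate 1 (1431, smallest adjusted p 0.0610). Of the 2427 genes called in control hepatocytes 1337 were called in the same direction in the knockout, where 1916 genes were called, and 1 in the opposite direction. The injury responses rest on separate libraries but share 1 estimate of the spread. Beside the control values, the knockout changes were 7.62 for Cdc20, 2.32 for Mcm7, -3.16 for Cyp2e1, -2.96 for Mat1a, 4.81 for Saa1 and 5.76 for Gpnmb in log2 units. A p that misses the threshold does not show that the genotypes act alike.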

How the data were processed

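RNA of sorted mouse hepatocytes was read as 3' tags (QuantSeq 3' mRNA-Seq FWD), a method that gives about 1 tag per transcript, so that counts do not scale with gene length. The authors deposited raw counts per gene symbol for 12 libraries of 4 groups of 3. The submitters' processing notes name the tools FastQC, cutadapt and STAR (2.6.1d) and, as builds, mm10 and GRCm38; no source used here gives the counter, its use of strand and molecular identifiers, or the annotation, so reads of antisense, overlapping and near-identical genes may be mixed. Total counts ran from 1617761 to 3028951 per library among the 6 control libraries, and counting intervals cover counting error only, since tags may include PCR copies. Coordinates of genes are those of GENCODE M21 (GRCm38), in which 36460 of the 37141 symbols were found.

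Counts were tested with edgeR 4.0.16 (R 4.3.3, limma 3.58.1): filterByExpr by group (minimum count 10), TMM factors, quasi-likelihood F tests of ctrl + CCl4 against ctrl in a fit of all 12 libraries with no covariates, and Benjamini-Hochberg adjustment over all tested genes with a threshold of 0.05. SE is the log2 fold change divided by the square root of F. Calls are described by list beside the share of all tested genes. A fold against 0 control counts is a bound at 3 counts over the group, and one against 1 to 3 counts has an exact 95% counting interval. The fit was tested on simulated data. The labels do not say that libraries came from separate animals, so p-values reflect how far these samples vary, a spread that may be technical only. No 2 libraries of a group were alike enough to be 1 library deposited in duplicate (chi-square per degree of freedom 9.33 to 26.6).

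The members, gene lists and rule for named genes were chosen with earlier results of these data known. The rule took, per list, 3 members with the smallest adjusted p, the 2 most abundant and up to 3 called against the majority; the 15 largest rises and falls among genes with a mean of at least 50 CPM in 1 group, without overlap and called with and without ctrl replicate 1; the most abundant genes; calls lost or gained without ctrl replicate 1; and the 10 steadiest genes. A1bg, the P450 and immediate early genes called without ctrl replicate 1, and the genes under other observations were chosen after their values were seen. Some genes the rule took are not reported here. Alternatives were RLE factors, library totals, 2 other filters, DESeq2 1.42.0, limma-voom with quality weights, a test against 1.5-fold, the 6 control libraries alone with and without ctrl replicate 1, a replicate block, and leaving out each library. Figures were drawn with matplotlib 3.10.9.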

Additional observations from a re-analysis of the deposited data

How the results depend on the processing

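With all libraries 1137 genes were higher and 1290 lower. Scaling by library totals gave 1974 and 698, a test against a 1.5-fold change gave 650 and 670, and leaving out 1 library at a time gave 763 to 1707 higher and 903 to 1466 lower genes. The highest of these counts came without ctrl replicate 1, and the lowest without ctrl + CCl4 replicate 3. Further settings were RLE factors, both other filters, DESeq2, limma-voom with quality weights and the control libraries alone, with and without ctrl replicate 1. Their counts stayed within 1.5 times of those with all libraries. The 6 control libraries alone, which do not use the spread of the knockout libraries, gave 762 higher and 985 lower genes. For the rises this is close to that limit. Deviations of samples with the same replicate number correlated at -0.046, 0.156 and -0.016, and those of other pairs at -0.155 to 0.156. With 3 samples in each group this is too little to settle whether the samples are paired. A replicate block gave 1250 higher and 1344 lower genes and ended 2 of the calls on named genes. Of 158 named genes called, 151 kept the call with library totals, 158 with DESeq2 and RLE factors, 150 with limma-voom, 139 against a 1.5-fold change and 147 to 154 without 1 library. A single call turned sign: the log2 change of Hbb-bs was 0.013 in the control libraries alone without ctrl replicate 1, and -3.49 to 0.035 when 1 library at a time was left out. Medians of 41 of 56 lists moved by more than the replicate spread with library totals, and of 21 without ctrl replicate 1; the cause was not tested. The count of 0 for the difference between genotypes was also 0 without ctrl replicate 1, an alternative chosen after seeing the data. With 1617761 to 3028951 counts a library, genes under about 10 counts were not tested, and absence of a call there says nothing.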

Other observations

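Outside the gene lists, which hold 1423 of the 10780 tested genes, lay 1769 of the 2427 called genes. Over all tested genes, 2063 were higher and 1891 lower without overlap of the groups. Among the 1769, 368 rises and 124 falls were at least 4-fold, called with and without ctrl replicate 1 and without overlap of the groups. The most abundant were taken after the values were seen. Among the falls were enzymes of hepatocyte metabolism. Cdo1, which breaks down cysteine, read 1920.2, 2356 and 2307 CPM in ctrl and 407, 555 and 454 CPM in ctrl + CCl4 (log2 change -2.22 with SE 0.22, edgeR adjusted p = 9.59e-06), Uox, the urate oxidase, 1388, 1424 and 2368 CPM in ctrl and 231, 256 and 292 CPM in ctrl + CCl4 (log2 change -2.73 with SE 0.30, edgeR adjusted p = 2.16e-05), and Qdpr, which recycles the cofactor of phenylalanine breakdown, 825, 714 and 1009 CPM in ctrl and 192, 198 and 208 CPM in ctrl + CCl4 (log2 change -2.09 with SE 0.22, edgeR adjusted p = 1.4e-05). Car3, the carbonic anhydrase of liver, fat and muscle, read 1779, 798 and 2137 CPM in ctrl and 173, 33.9 and 299 CPM in ctrl + CCl4, with ctrl + CCl4 replicate 2 the lowest (log2 change -3.22 with SE 0.57, edgeR adjusted p = 0.00103). Pank1, of coenzyme A synthesis, fell from 485, 769 and 945 to 186, 159 and 159 CPM and Psen2, a subunit of gamma-secretase, from 949, 878 and 1311 to 241, 148 and 223 CPM (log2 fold changes -2.12 and -2.36).

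Among the rises were genes known from macrophages. The chemokine Ccl6 read 109, 24.2 and 71.1 CPM in ctrl and 971, 824 and 1378 CPM in ctrl + CCl4 (log2 change 3.96 with SE 0.53, edgeR adjusted p = 9.7e-05), Clec7a, the receptor dectin-1, 44.8, 8.56 and 7.11 CPM in ctrl and 279.8, 245 and 282 CPM in ctrl + CCl4 (log2 change 3.68 with SE 0.56, edgeR adjusted p = 0.000278), and the scavenger receptor Msr1 119.7, 26.7 and 28.4 CPM in ctrl and 283, 269.7 and 274 CPM in ctrl + CCl4 (log2 change 2.22 with SE 0.52, edgeR adjusted p = 0.00671). Their highest control was ctrl replicate 1. Cd63, a membrane protein of lysosomes and vesicles in many cell types, rose from 19.7, 8.56 and 4.26 to 189, 176 and 332 CPM (log2 change 4.35 with SE 0.43, edgeR adjusted p = 9.71e-06), Iqgap1, a scaffold of actin and signalling proteins, from 98.7, 29.7 and 19.2 to 305, 356 and 371 CPM (log2 change 2.78 with SE 0.52, edgeR adjusted p = 0.00149) and Neurl1b, a ubiquitin ligase of Notch ligands, from 22.6, 0 and 10.7 to 256, 255 and 186 CPM (log2 change 4.34 with SE 0.67, edgeR adjusted p = 0.000325). Which cells these transcripts came from was not tested.

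The labels do not give the sex of the animals. Xist had 236, 371 and 44 counts in the 3 controls and 225, 14 and 251 in the 3 injured libraries, and the Y-linked genes Ddx3y, Eif2s3y, Uty and Kdm5d were at 0 counts in all 6.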
